A study of Mus musculus with 13 samples.

Results

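The genes described here are 10 immediate early transcription factors: Fos, Fosb and Fosl2 of the FOS family, Jun, Junb and Jund of the JUN family, the zinc finger factor Egr1, the orphan nuclear receptors Nr4a1 and Nr4a3, and the stress-induced factor Atf3. They were chosen by name, with all of their probe sets, which gave 15 probe sets for 10 of the 17097 genes measured. The animals were C57Bl/6 males, 13 in all, aged 4 months and fed standard chow, and RNA of the quadriceps of each was read on 1 Affymetrix array. The groups were SKM-KO (n = 3, DOR ablation), C (n = 3), SKM-Tg (n = 4, DOR gain of function) and Wt (n = 3), where DOR is an earlier name of Trp53inp2. The design asks how both manipulations alter gene expression in skeletal muscle. The labels do not say which control belongs to which line, and the naming was the ground for setting SKM-KO against C and SKM-Tg against Wt. The promoter of the transgene and the Cre driver are not given in the sources used here.

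Immediate early genes are switched on within minutes of a stimulus, without new protein synthesis, by kinases that act on factors already bound at their promoters, such as SRF and CREB. FOS proteins pair with JUN proteins to form AP-1, a dimer that binds short DNA sites and turns on later genes. In skeletal muscle, contraction, stretch, injury and adrenergic signals are known to raise these transcripts, and the NR4A receptors are known there as regulators of glucose and lipid use. The protein made from Trp53inp2 takes part in forming autophagosomes and can raise the activity of nuclear receptors.

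The deposited values are log2 signals, so that differences between them are log2 ratios. Values of a gene are compared between arrays only, since the brightness of 1 probe set says nothing about the level of another. Trp53inp2, the targeted gene, had 8.58, 8.79 and 8.99 in SKM-KO, against 11.06, 11.19 and 11.15 in C, which bears out that label. In SKM-Tg it had 11.11, 11.03, 11.28 and 11.24, against 11.20, 11.46 and 11.00 in Wt, and its 1 probe set may lie outside the transgene, so it checks nothing there. Muscle fibre markers were bright on all arrays, with a mean log2 signal of 12 genes between 12.15 and 12.33. The array Wt 2 stood apart, with a median correlation of 0.963 with the other arrays, while those of the other 12 lay between 0.985 and 0.995. Its 3′ to 5′ log2 differences for Gapdh (0.25) and Actb (-0.21) lay inside the range over all arrays (0.23 to 0.30 and -0.31 to -0.15). Results are therefore also given without Wt 2.

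Promoter sequence was at hand for 9 of the 10 genes, and 6 of the 9 held the CRE core TGACG, the letters read by the CREB and ATF family, on either strand in the 250 bases before the RefSeq start. These were Atf3, Fos, Fosb, Junb, Nr4a1 and Nr4a3, and 17.8% of 32851 promoters of the same length held it. Fos, Nr4a1 and Nr4a3 held it at 2 or more places, as did 3.9% of all promoters. They are shown with Fosb, whose deviations from the group means followed those of Nr4a3 with all 13 arrays (described further on). The capitals mark TGACG or its reverse complement CGTCA. The sequences are RefSeq's, on GRCm38.p6, written 5′ to 3′ along the gene: Fos at chr12:85473640-85473889 on the plus strand, Nr4a1 at chr15:101266596-101266845 on the plus strand, Nr4a3 at chr4:48045055-48045304 on the plus strand and Fosb at chr7:19310046-19310295 on the minus strand.
Fos: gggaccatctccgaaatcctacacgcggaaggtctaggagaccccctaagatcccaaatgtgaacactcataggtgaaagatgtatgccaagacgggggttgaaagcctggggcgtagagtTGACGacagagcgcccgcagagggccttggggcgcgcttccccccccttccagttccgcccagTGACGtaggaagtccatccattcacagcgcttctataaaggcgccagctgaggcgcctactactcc
Nr4a1: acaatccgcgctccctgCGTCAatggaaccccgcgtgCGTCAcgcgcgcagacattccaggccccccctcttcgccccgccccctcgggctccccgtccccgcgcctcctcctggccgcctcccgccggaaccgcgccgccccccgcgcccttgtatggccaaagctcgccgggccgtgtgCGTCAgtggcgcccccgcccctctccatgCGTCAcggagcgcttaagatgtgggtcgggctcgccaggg
Nr4a3: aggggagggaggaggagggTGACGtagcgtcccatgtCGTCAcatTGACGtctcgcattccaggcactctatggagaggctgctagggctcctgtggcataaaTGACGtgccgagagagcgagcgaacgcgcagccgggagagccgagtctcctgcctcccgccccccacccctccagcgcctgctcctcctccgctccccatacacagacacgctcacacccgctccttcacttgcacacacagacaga
Fosb: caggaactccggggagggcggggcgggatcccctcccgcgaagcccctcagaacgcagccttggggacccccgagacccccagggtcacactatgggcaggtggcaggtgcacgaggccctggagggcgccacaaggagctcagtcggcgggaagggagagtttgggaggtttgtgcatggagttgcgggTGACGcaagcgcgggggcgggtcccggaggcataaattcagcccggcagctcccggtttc
The CRE cores of Fos lie at -129 to -125 and -66 to -62 from the start, ahead of a TATAAA at -33 to -28. Fos was the 1 of the 9 promoters with TATAAA, which 12.4% of all promoters held. In Nr4a1 the CRE cores lie at -233 to -229, -213 to -209, -69 to -65 and -40 to -36, all on the opposite strand, and in Nr4a3 at -231 to -227, -213 to -209, -205 to -201 and -147 to -143. The EGR site GCGGGGGCG was found on either strand in Fosb, Fosl2 and Nr4a1, against 2.57% of all promoters. In Fosb it lies at -50 to -42, next to the CRE core at -60 to -56. The full CRE TGACGTCA (1.55% of promoters), the AP-1 site TGACTCA (4.46%), the NR4A site NBRE with the letters AAAGGTCA (1.34%) and the CArG box (1.47%), the site of SRF, were in 0 of the 9 windows. The full CRE contains this core, and such matches describe the letters of these windows and no more.

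Within the groups, most of these genes varied more from mouse to mouse than most genes on the array. The within-group standard deviation (SD) had a median of 0.53 over the 9 genes whose mean signal reached 4.9, the limit for testing, against 0.19 over all 10411 genes tested. The SD of Atf3 (0.88) was at percentile 99.9 of the genes tested, Egr1 (0.69) at 99.6, Nr4a1 (0.57) at 99.0, Fos (0.54) at 98.7, Junb (0.53) at 98.6 and Nr4a3 (0.39) at 93.7. With all arrays, Fosl2 (0.31) was at 83.8, Jund (0.27) at 75 and Jun (0.21) at 57.2. Without Wt 2 these were at 93.9, 33.9 and 50.4, and within SKM-KO and C at 96.5, 50.8 and 48.3. The dimmer Fosl2 probe set was at percentile 92.2 of all probe sets, with all arrays. Above the 90th percentile lay 6 of 9 with all arrays, 7 of 9 without Wt 2, and 7 of 9 within SKM-KO and C alone, where the median SD was 0.34 against 0.11 for all genes. Within SKM-Tg and Wt the count was 5 of 9. Fosb, the 1 gene below the limit, had an SD of 0.53, at percentile 98.8 of all probe sets.

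**Figure D1:**
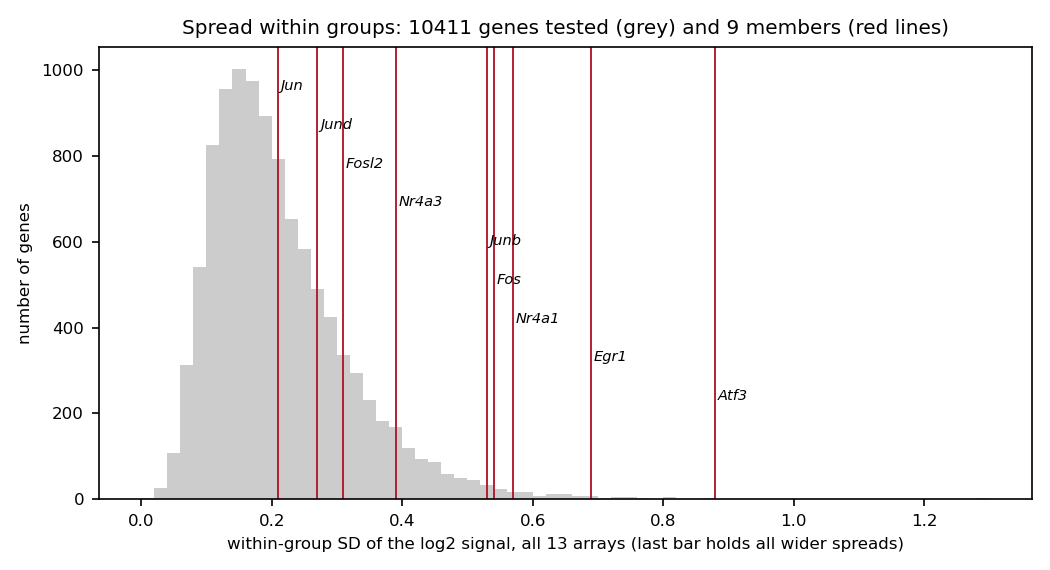
Histogram of the within-group SD of the log2 signal over 13 arrays (horizontal axis) for the 10411 genes tested (vertical axis, number of genes), with red lines at the 9 immediate early factors. Jun at 0.21 sits near the median of 0.19, and Atf3 at 0.88 lies in the far right tail.

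Among the FOS genes, which code for the AP-1 subunits that bind DNA only with a JUN partner, Fos had 8.31, 8.42 and 7.49 in SKM-KO, against 7.93, 8.80 and 7.58 in C. In SKM-Tg it had 8.55, 7.37, 7.47 and 8.19, against 8.82, 9.07 and 8.25 in Wt. The ranges of SKM-KO and C overlapped throughout, and in the other line 1 SKM-Tg array lay above the lowest Wt array. Over all 13 arrays Fos spanned 1.70, or 3.24-fold, between SKM-Tg 2 and Wt 2.

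Fosb, a FOS protein whose short splice form accumulates with repeated stimulation in brain, was dim. It had 3.93, 3.59 and 3.48 in SKM-KO, against 3.69, 3.52 and 3.36 in C. In SKM-Tg it had 4.15, 4.85, 3.53 and 4.03, against 5.55, 5.56 and 4.05 in Wt. Wt 1 and Wt 2 were the brightest arrays of all for Fosb, and all 3 Wt arrays were above all 6 arrays of SKM-KO and C.

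Fosl2, which codes for FRA-2, a FOS protein with no strong activation domain, has 2 probe sets. The brighter one had 8.31, 7.51 and 7.59 in SKM-KO, against 7.54, 7.48 and 7.53 in C. In SKM-Tg it had 7.40, 7.94, 6.99 and 7.50, against 7.95, 8.02 and 7.95 in Wt. The arrays of each control group lay very close together, with an SD of 0.03 in C and 0.04 in Wt, while SKM-KO 1 was the highest of all 13. The dimmer probe set had 6.06, 6.55, 6.00 and 6.00 in SKM-Tg, against 6.55, 6.98 and 5.83 in Wt, so there the Wt arrays were spread and overlapped SKM-Tg. In SKM-KO it had 6.18, 5.65 and 6.00, against 5.80, 5.90 and 5.71 in C.

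Of the JUN genes, Jun codes for the strongest activator among them and also has 2 probe sets. The brighter had 9.26, 9.07 and 9.05 in SKM-KO, against 9.08, 9.07 and 8.91 in C. In SKM-Tg it had 8.97, 9.40, 8.97 and 8.92, against 9.20, 9.66 and 9.07 in Wt. Wt 2 and SKM-Tg 2 were the highest arrays, and the others lay close together. The dimmer probe set, with 8.77, 8.60 and 8.54 in SKM-KO, against 8.50, 8.46 and 8.40 in C, separated these groups by a small margin. In SKM-Tg it had 8.55, 8.80, 8.33 and 8.41, against 8.52, 8.76 and 8.61 in Wt.

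Junb, a JUN protein that in many settings restrains growth and that in muscle is known to favour fibre size, had 6.05, 5.51 and 5.54 in SKM-KO, against 6.17, 5.45 and 5.61 in C. In SKM-Tg it had 5.88, 6.37, 6.37 and 6.09, against 6.51, 7.93 and 6.05 in Wt. Wt 2 alone carried the high end, far above the next array, Wt 1.

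Jund, the JUN gene that is expressed most steadily in resting cells, had 9.20, 9.14 and 9.17 in SKM-KO, against 9.0, 9.26 and 9.0 in C. In SKM-Tg it had 9.18, 9.30, 9.57 and 9.26, against 9.55, 10.36 and 9.45 in Wt. Again Wt 2 stood far above the rest, and the other Wt arrays lay at the top of the SKM-Tg range. A second, dimmer Jund probe set had 6.22, 6.04 and 5.93 in SKM-KO, against 6.20, 6.01 and 6.22 in C. It had 6.06, 6.23, 6.56 and 6.46 in SKM-Tg, against 6.20, 6.52 and 6.17 in Wt, and did not set Wt 2 apart.

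Egr1, a zinc finger factor that binds GC-rich sites, had 7.83, 8.28 and 6.98 in SKM-KO, against 7.93, 7.79 and 6.76 in C. In SKM-Tg it had 8.86, 6.82, 8.27 and 8.64, against 7.70, 7.63 and 7.82 in Wt. The 4 SKM-Tg arrays spanned 2.04, or 4.13-fold, and enclosed the whole Wt range of 0.19, and Wt 2 was the lowest Wt array. In SKM-KO and in C 1 array each, SKM-KO 3 and C 3, was far below the others.

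Nr4a1, also called Nur77, had 7.73, 7.69 and 7.10 in SKM-KO, against 8.24, 7.71 and 6.86 in C. In SKM-Tg it had 7.69, 7.99, 6.48 and 7.43, against 7.85, 8.53 and 7.65 in Wt. Low values were again found in SKM-KO 3 and C 3, together with SKM-Tg 3, and the groups of both lines overlapped.

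Nr4a3, also called NOR-1, has 3 probe sets, and the brightest had 6.20, 6.32 and 5.78 in SKM-KO, against 5.82, 5.98 and 5.57 in C. In SKM-Tg it had 5.51, 6.21, 5.73 and 6.20, against 6.84, 7.14 and 5.94 in Wt. Wt 1 and Wt 2 were above all other arrays, while Wt 3 fell inside the SKM-Tg range. The middle probe set had 4.68, 5.09, 4.67 and 5.54 in SKM-Tg, against 6.05, 6.12 and 5.07 in Wt. The dimmest had 3.38, 3.97, 3.25 and 3.88 in SKM-Tg, against 4.55, 5.05 and 3.41 in Wt. The same pair of Wt arrays was high in all 3. In SKM-KO the middle one had 4.93, 5.27 and 4.70, against 4.90, 4.76 and 4.49 in C, and the dimmest 3.92, 4.07 and 3.73, against 3.34, 3.93 and 3.31 in C.

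Atf3, a factor of the ATF and CREB family that stress and injury induce, had 8.31, 9.37 and 9.22 in SKM-KO, against 6.91, 10.17 and 9.08 in C. In SKM-Tg it had 7.66, 8.21, 8.51 and 8.46, against 8.94, 8.22 and 8.57 in Wt. Both the lowest and the highest of all 13 arrays were C mice, 3.26 apart, or 9.58-fold, which is the widest span of the 10 genes. Without C 1 the SKM-KO minus C difference of Atf3 was -0.66, and without C 2 it was 0.97.

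**Figure D2:**
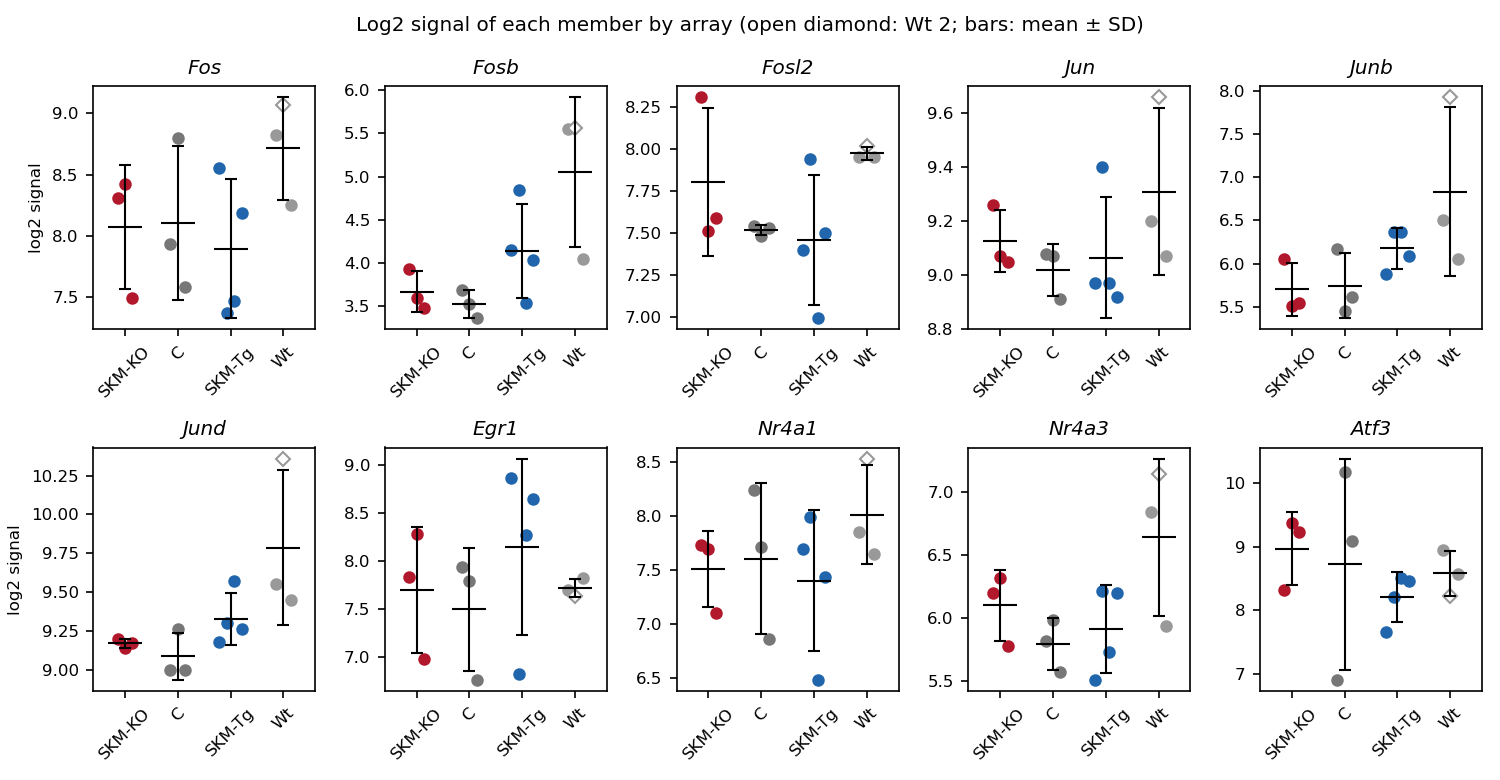
Log2 signal of each gene (vertical axis; 1 panel per gene, brightest probe set) for every array of SKM-KO, C, SKM-Tg and Wt, with bars at the group mean ± SD. The open diamond is Wt 2, which is the highest Wt array in 8 of 10 panels, and the C arrays of Atf3 run from 6.91 to 10.17.

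SKM-KO muscles showed no difference from C in these factors that passed the test. Limma, fitted over all genes and all 13 arrays, called 0 of the 9 genes tested at an adjusted p under 0.05, where 0.00961% of the genes tested were called. At an unadjusted p under 0.05 it found 0 of 9, against 0.557% of all genes. Of the 9 differences 6 were positive, as were 54% of all genes, and their median was 0.11, against 0.01 for all genes. The farthest from 0 were Nr4a3 at 0.31 (SE 0.28, 95% interval -0.30 to 0.92) and Fosl2 at 0.29 (SE 0.23, -0.20 to 0.77). Fos stood at -0.03 (-0.85 to 0.80), Egr1 at 0.20 (-0.83 to 1.24) and Atf3 at 0.24 (-1.07 to 1.56), with wide intervals in either direction. For Jun (0.11, -0.24 to 0.46) and Jund (0.08, -0.35 to 0.51) they are narrower. At the level of probe sets limma called 0 of 15, against 0.00666% of all, and 0 had an unadjusted p under 0.05, against 0.908%. The dimmer Jun probe set was the 1 of 15 whose SKM-KO arrays all lay above C (0.18, SE 0.12, limma adjusted p 1), as did those of 3.83% of all probe sets. In bulk muscle, fewer cells of a type and less RNA per cell cannot be told apart, in this and the following comparisons.

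In SKM-Tg, 8 of the 9 factors had lower means than in Wt, but none passed the threshold. Limma called 0 of 9, and 0% of all genes tested. At an unadjusted p under 0.05 were 4 of 9, all lower in SKM-Tg, against 5.39% of all genes on that side: Nr4a3 at -0.73 (SE 0.26, p 0.0166), Jund at -0.46 (SE 0.19, p 0.0287), Fosl2 at -0.52 (SE 0.21, p 0.0302) and Fos at -0.82 (SE 0.36, p 0.0397), with a limma adjusted p of 0.702 each. On the linear scale these are 1.66-fold, 1.37-fold, 1.43-fold and 1.76-fold lower. The median of the 9 was -0.52, against -0.05 for all genes, and 62.2% of all genes were negative. Fosl2 was the 1 gene of 9 whose 4 SKM-Tg arrays all lay below the Wt arrays, as did those of 2.79% of all genes. Its highest SKM-Tg array had 7.94 and its lowest Wt array 7.95, and the dimmer Fosl2 probe set did overlap. Junb at -0.66 (SE 0.35), Nr4a1 at -0.61 (SE 0.37), Atf3 at -0.37 (SE 0.57) and Jun at -0.25 (SE 0.15) had a p above 0.05. Egr1 alone was positive, at 0.43 (SE 0.45, 95% interval -0.54 to 1.40).

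Probe sets of 1 gene mostly went the same way. All 3 Nr4a3 probe sets lay between -0.75 and -0.71, both of Fosl2 at -0.52 and -0.30 and both of Jun at -0.25 and -0.10. The dimmer Jund probe set, at 0.03 (SE 0.13), did not share the -0.46 of the brighter one. Fosb, tested at this level only, stood at -0.91 (SE 0.36, p 0.0254, limma adjusted p 0.777). In all, limma called 0 of 15 probe sets and 0% of all, and 7 had an unadjusted p under 0.05, all lower in SKM-Tg, against 3.79% of all probe sets on that side.

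These differences moved with the Wt arrays. Without Wt 2, 0 of 9 genes had an unadjusted p under 0.05, while 5.62% of all genes did, and the median was -0.35. Junb then stood at -0.10, Jun at -0.07 and Jund at -0.17, whereas Fosl2 at -0.49, Nr4a3 at -0.48 and Fos at -0.64 kept more of their size. For Fosl2 this held for the brighter probe set only, since the dimmer one went from -0.30 to -0.04. Fosb was -0.66 without Wt 2. Without Wt 3, the lowest Wt array for most of these genes, Nr4a3 was -1.08 (limma adjusted p 0.0578), Junb -1.05 and Fos -1.05, and 5 of 9 had an unadjusted p under 0.05, as did 30.8% of all genes. With gene-by-gene array quality weights, chosen after the usual estimate failed to converge, limma called Nr4a3 (-0.81, adjusted p 0.0201). That setting gave Wt 1 a weight of 7.23 and Wt 2 a weight of 0.147, and it called 1487 of all genes.

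**Figure D3:**
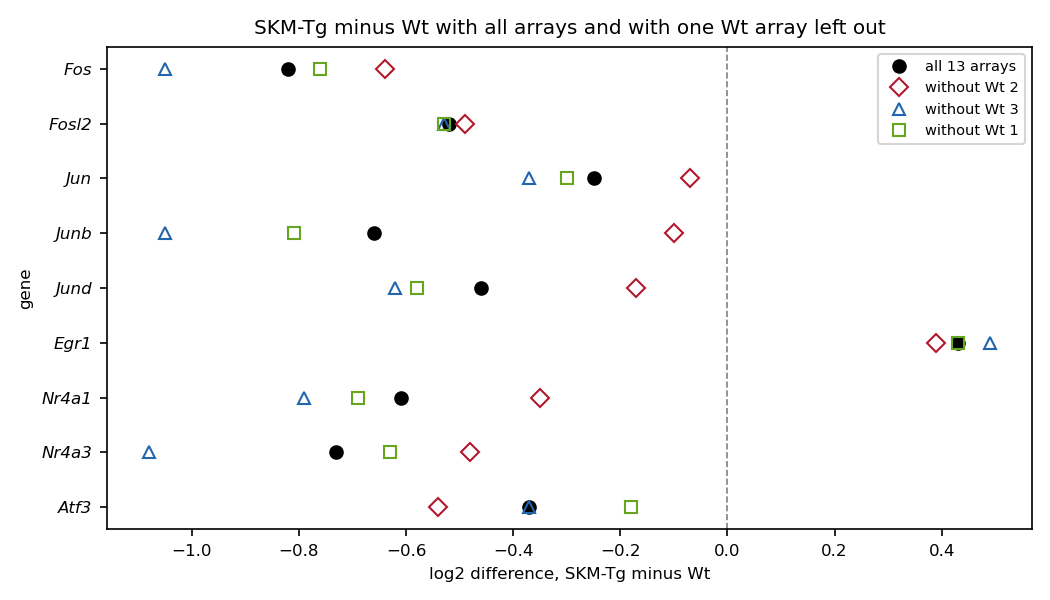
Log2 difference, SKM-Tg minus Wt, of the 9 genes tested (horizontal axis) with all 13 arrays (filled) and with 1 Wt array left out (open symbols). Without Wt 2 the JUN genes lie between -0.17 and -0.07, and without Wt 3 Fos, Junb and Nr4a3 lie at -1.05 or below.

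The effects in both lines were then set against each other, as SKM-Tg minus Wt less SKM-KO minus C. Limma called 0 of 9 genes, against 0.0192% of all genes. An unadjusted p under 0.05 was found for 2 of 9, both negative, against 2.36% of all genes on that side: Nr4a3 at -1.04 (SE 0.39, p 0.0187) and Fosl2 at -0.80 (SE 0.31, p 0.0228), with a limma adjusted p of 0.989 each. The effect on Nr4a3 was -0.73 in the SKM-Tg line and 0.31 in the SKM-KO line, and that on Fosl2 was -0.52 in the SKM-Tg line and 0.29 in the SKM-KO line. Of the 9, 8 were negative, as were 61.7% of all genes, and the median was -0.61, against -0.06 for all genes. At the level of probe sets limma called 0 of 15, against 0.00444% of all, and 4 had an unadjusted p under 0.05, all negative, against 1.69%. Without Wt 2 the median of the 9 was -0.25, with Nr4a3 at -0.79 (p 0.0479) and Fosl2 at -0.78 (p 0.0367), limma adjusted p 0.999 for both. The dimmer Fosl2 probe set stood at -0.44 (SE 0.34) with all arrays and at -0.17 (SE 0.29) without Wt 2. Without SKM-KO 1, the highest array for Fosl2, Fosl2 was -0.55. Egr1 was 0.23 (SE 0.66) and turned negative, -0.13, without SKM-KO 3.

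The control groups were compared too, and 8 of the 9 genes had higher means in Wt than in C, none past the threshold. Limma called 0 of 9 in Wt minus C, against 0.00961% of all genes. An unadjusted p under 0.05 was found for 3 of 9, all higher in Wt: Jund at 0.70 (SE 0.20, p 0.00382), Nr4a3 at 0.85 (SE 0.28, p 0.0100) and Junb at 1.09 (SE 0.38, p 0.0128), with limma adjusted p-values of 0.144, 0.145 and 0.145. On that side were 16.2% of all genes. Over all genes 58.8% were positive, and the median of the 9 was 0.46, against 0.06 for all genes. The Wt arrays all lay above the C arrays for Fosl2 (0.46, SE 0.23) and Jund, as for 15.4% of all genes. Among probe sets limma called 0 of 15, against 0.00888% of all. Of the 15, 7 had an unadjusted p under 0.05 on the higher side, against 9.29% of all probe sets, and 5 did not overlap, against 9.3%. Fosb had the farthest from 0 of these, 1.53 (SE 0.38, p 0.00173, limma adjusted p 0.238), or 2.89-fold. The dimmer Jund probe set, at 0.15 (SE 0.14), did not share the 0.70 of the brighter one.

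Leaving out Wt 3 brought Junb (1.48), Jund (0.87) and Nr4a3 (1.20) past the threshold, with limma adjusted p-values of 0.00857, 0.00777 and 0.00524, in a fit that called 4124 of 10429 genes. Without Wt 2 they stood at 0.54, 0.41 and 0.60, none past the threshold, as with all arrays. Their unadjusted limma p-values were then 0.0439, 0.00642 and 0.0491, with adjusted p-values of 0.516, 0.462 and 0.529. In that fit 3 of 9 genes had an unadjusted p under 0.05, against 9.39% of all genes. Fosb was at 1.28 (SE 0.40, limma adjusted p 0.708). The dimmer Jund probe set was then at 0.04 (SE 0.14). SKM-Tg minus Wt and Wt minus C share the Wt arrays, so a high Wt array lowers one and raises the other. Side by side, Nr4a3 was -0.73 and 0.85, Jund -0.46 and 0.70, Junb -0.66 and 1.09, Fosl2 -0.52 and 0.46, and Fos -0.82 and 0.61. For Nr4a3 the order of the group means was Wt 6.64 ± 0.63, SKM-KO 6.10 ± 0.28, SKM-Tg 5.91 ± 0.35 and C 5.79 ± 0.21 (SD), with neighbours closer than their spread. For Junb it was Wt 6.83 ± 0.98, SKM-Tg 6.18 ± 0.23, C 5.74 ± 0.38 and SKM-KO 5.70 ± 0.31, and the SD of Wt exceeded the step to SKM-Tg.

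**Figure D4:**
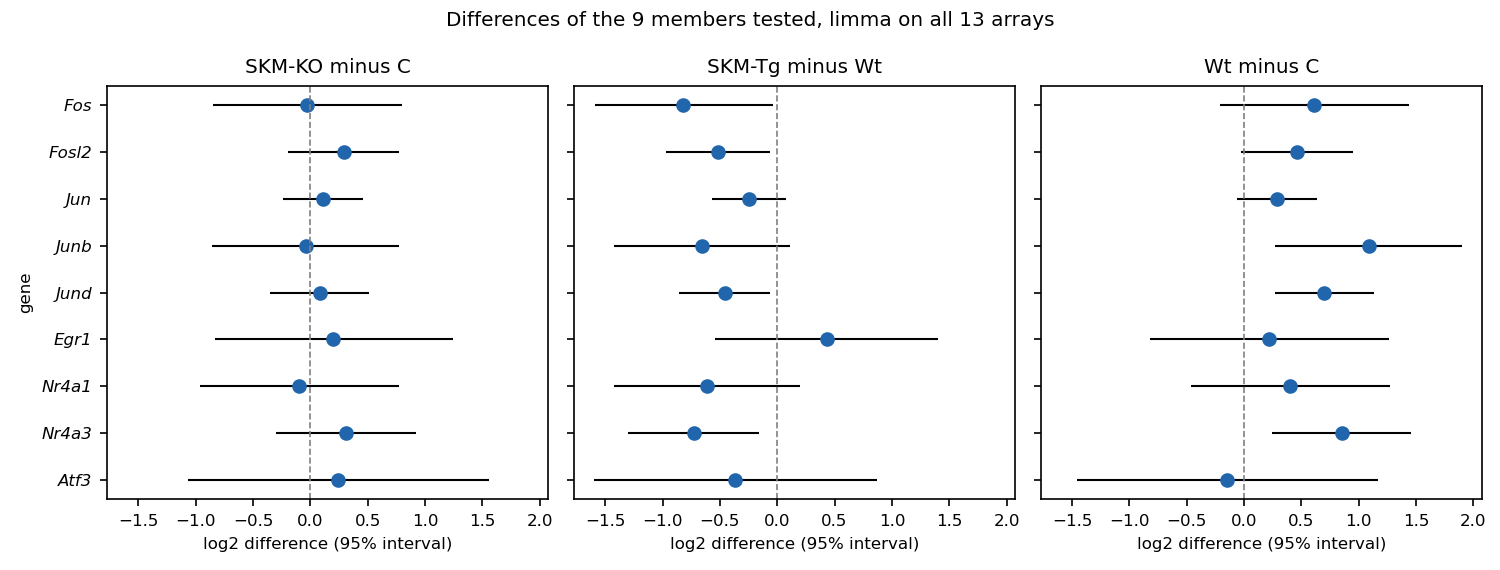
Log2 differences of the 9 genes tested with 95% intervals of the limma fit, with the panels SKM-KO minus C, then SKM-Tg minus Wt, then Wt minus C. In SKM-KO minus C all 9 intervals include 0, and in SKM-Tg minus Wt those of Nr4a3, Jund, Fosl2 and Fos do not.

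Single mice were high or low for several factors at once. Wt 2 was the highest Wt array for 8 of the 10 genes and Wt 3 the lowest for the same 8, namely all but Egr1 and Atf3. Over all 13 arrays Wt 2 was the highest for 7. SKM-KO 3 was the lowest of its group for 6 genes and the highest for 0, and C 3 the lowest for 7 and the highest for 0. Each of them was low in Fos, Egr1, Nr4a1 and Nr4a3, by -0.58 and -0.53 for Fos from the mean of its group. In SKM-Tg, array 2 was highest for 6 genes (Fosb, Fosl2, Jun, Junb, Nr4a1 and Nr4a3) and lowest for Fos and Egr1. The mean level of 5 fat cell genes in SKM-Tg 2 was 9.43, against 8.09 to 8.21 in the other SKM-Tg arrays, and its part in these values was not tested. Replicate numbers follow the order of the records, and the labels name no littermates or pairs.

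**Figure D5:**
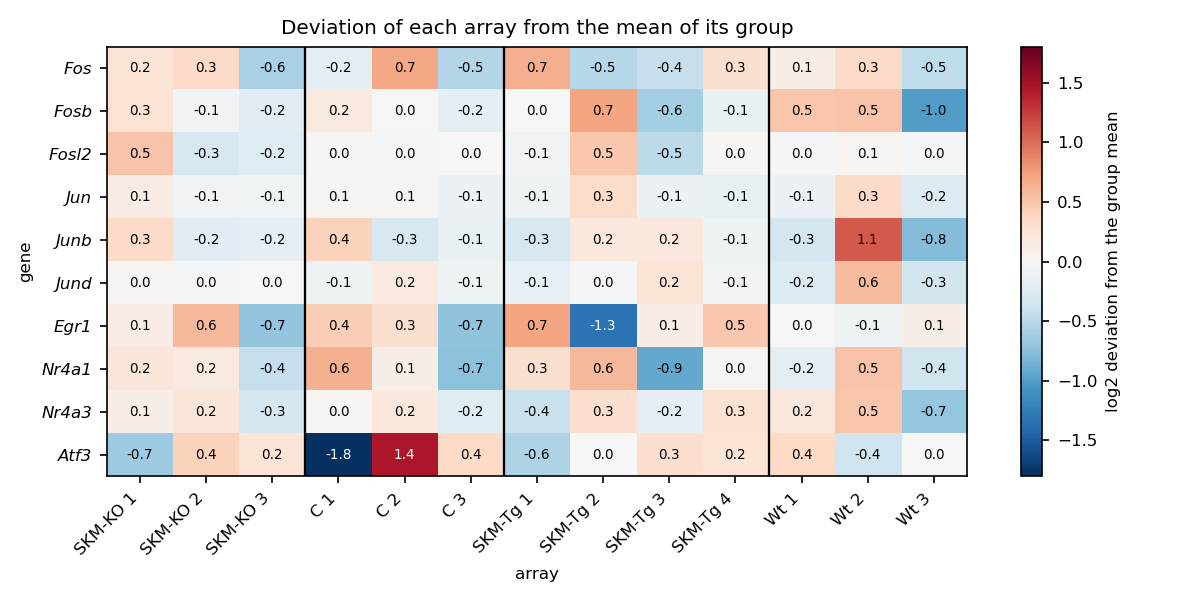
Deviation of each array (columns) from the mean of its group, on the log2 scale, for the 10 genes (rows; red above, blue below the group mean). Wt 2 is above its group for 8 genes and Wt 3 below for most of them, and C 1 and C 2 deviate in opposite directions in Atf3.

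After the group means were taken away, Nr4a3 followed the mean of the other 8 genes most closely, with a Pearson correlation of 0.78 over 13 arrays (Spearman 0.75), and 0.58 without Wt 2 and Wt 3. Jun stood at 0.69 (0.40 without these arrays), Nr4a1 at 0.59 (0.53) and Fos at 0.51 (0.40). Junb at 0.57 and Jund at 0.54 rested on these arrays, since without them both were near 0 (0.03 and 0). Egr1 at -0.06 and Atf3 at -0.26 did not follow the rest. Values between pairs are given with all 13 arrays only. They were 0.79 for Junb with Jund, 0.77 for Fosb with Nr4a3, 0.76 for Fosb with Jun and 0.70 for Fos with Egr1. With Jun, Fos stood at 0.12 and Egr1 at -0.39. Wt 2 and Wt 3 deviated from the Wt mean by 1.1 and -0.78 in Junb and by 0.57 and -0.33 in Jund. In Fosb they deviated by 0.51 and -1, and in Nr4a3 by 0.5 and -0.7. Arrays share their normalization and the group means, so these correlations are descriptions. Fos, Fosb, Nr4a1 and Nr4a3, whose promoters are printed above, all hold the CRE core, and so do Junb and Atf3. Fosl2, Jun and Jund do not, and the part of the core in these correlations was not tested. By the same measure, the genes outside the list nearest to the mean of the 9 were Apoc4 (0.92, and 0.91 without Wt 2), Trmt1l (0.90), Folr2 (0.90), Cacng8 (0.89), Ssbp4 (0.89), Phgdh (0.89), Dvl2 (0.88) and Sipa1l1 (0.88). Without Wt 2 the other 7 stood between 0.81 and 0.85.

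Other immediate early genes, a list of 44 of which 35 were tested, had a median nearer to 0 than the transcription factors in each comparison. In SKM-Tg minus Wt limma called 0 and 28 of 35 were negative, against 62.2% of all genes, with a median of -0.10, against -0.05 for all genes. The smallest p was that of Klf2, a factor induced by flow in endothelium, at -0.82 (SE 0.32, p 0.0250), with 6.94, 7.55, 6.72 and 7.97 in SKM-Tg, against 7.89, 8.38 and 8.08 in Wt. Next came the matrix protein Ccn2 at -0.42, the growth arrest gene Gadd45a at 0.50 and the MAP kinase phosphatase Dusp1 at -0.49, all with a p above 0.05. Without Wt 2, 17 of 34 were negative and the median was 0. In SKM-KO minus C, 25 of 35 were positive, against 54% of all genes, with a median of 0.05, and limma called 0, with 0 at an unadjusted p under 0.05. In Wt minus C limma called 0, and 10 of 35 had an unadjusted p under 0.05, all higher in Wt, where 16.2% of all genes were on that side and 27.8% in either direction. The smallest p-values were those of Cebpb at 0.61, the clock gene Per1 at 0.80, Rhob at 0.52 and Csrnp1 at 0.79. Without Wt 2, 3 of 34 had an unadjusted limma p under 0.05 in Wt minus C, against 9.39% of all genes. The median of the list was then 0.13, against 0.26 with all arrays.

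Of 20 kinases and factors that act on these promoters, limma called 0 in each comparison. In SKM-Tg minus Wt 14 of 20 were negative, against 62.2% of all genes, and 4 of 20 had an unadjusted p under 0.05, all lower in SKM-Tg, against 5.39% on that side. These were the stress kinase Mapk14 at -0.31 (SE 0.09, p 0.00597), the SRF cofactor Mrtfa at -0.73 (p 0.0183), Srf itself at -0.22 (p 0.0388) and Camk2d at -0.22 (p 0.0411), with limma adjusted p-values of 0.691 to 0.702. Mapk14 had 9.92, 10.02, 10.18 and 10.17 in SKM-Tg, against 10.34, 10.36 and 10.43 in Wt, without overlap. Mrtfa rested on Wt 2, with 5.28, 5.55, 5.91 and 5.71 in SKM-Tg, against 6.08, 7.19 and 5.77 in Wt.

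The remaining relatives, partners and targets gave 0 calls by limma in each of the 4 comparisons. Of 9 further AP-1 family genes 6 were negative in SKM-Tg minus Wt (median -0.06, 0 with an unadjusted p under 0.05), and of 6 EGR and NR4A relatives and partners 5 were (median -0.08, 0). Over all genes 62.2% were negative there, with a median of -0.05. Nr4a2, the NR4A gene outside the list of 10, had 6.40, 7.19, 6.12 and 6.15 in SKM-Tg, against 6.47, 6.76 and 6.18 in Wt, which overlap. Of 12 genes known as NR4A targets in muscle 9 were negative (median -0.07, 0), with the glycogen synthase Gys1 at -0.21 having the smallest p (0.104). In SKM-KO minus C 6 of these 12 were negative (median 0), among them the muscle fructose bisphosphatase Fbp2 at -0.54 (SE 0.22, p 0.0283, limma adjusted p 1). Of 9 AP-1 and ATF3 targets 5 were negative in SKM-Tg minus Wt (median -0.13), and the cyclin Ccnd1 at -0.39 had an unadjusted p of 0.0412. Without Wt 2 the SKM-Tg minus Wt medians were -0.02 for the AP-1 family genes and 0.09 for the EGR and NR4A genes. They were 0.01 for the NR4A targets and 0.04 for the AP-1 and ATF3 targets, against -0.03 for all genes. Negative were then 7 of 9, 1 of 5, 5 of 12 and 4 of 9, in the same order.

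Markers of other cell types also had medians away from that of all genes. In SKM-Tg minus Wt, 10 of 11 macrophage markers (median -0.25), 10 of 12 of endothelium (-0.22), 6 of 8 of fibroblasts (-0.24), 5 of 5 of satellite cells (-0.32) and 3 of 3 erythroid genes (-0.28) were negative, and 4 of 4 fat cell genes were positive (1.06). Limma called 0 of them. Over all genes 62.2% were negative, with a median of -0.05. Without Wt 2 the medians of these lists, in the same order, were -0.09, -0.11, -0.09, -0.04, 0.01 and 1.63, against -0.03 for all genes. The mean level of 12 endothelial markers ran from 8.04 to 8.53 in SKM-Tg, against 8.34 to 8.61 in Wt, and that of 3 erythroid genes from 7.87 to 8.33 in SKM-Tg, against 7.90 to 8.70 in Wt, with Wt 2 the highest in both. Over 14 macrophage markers it ran from 5.24 to 5.86 in SKM-Tg, against 5.51 to 5.92 in Wt. Of these 14 markers 11 were tested. The others, Adgre1 (3.51 to 4.21 over all arrays), Cd14 (4.15 to 4.67) and Ptprc (2.69 to 3.62), lay below the limit for testing. Of 8 satellite cell markers 5 were tested. Not among them were Pax7 (3.98 to 4.95), Myf5 (2.61 to 3.23) and Vcam1 (4.14 to 4.71), whose means lay below that limit. In SKM-KO minus C 6 of 6 genes of liver plasma proteins were negative (median -0.78), 5 of them with an unadjusted p under 0.05, led by Apoa1 at -1.03 (SE 0.32, p 0.00735, limma adjusted p 1). Over all genes 46% were negative, and 0.288% were so with an unadjusted p under 0.05. The mean level of 7 liver genes ran from 4.53 to 4.82 in SKM-KO, against 4.88 to 6.36 in C, with C 2 the highest. In the same comparison 10 of 11 macrophage markers (0.20) and 4 of 4 nerve and Schwann cell genes (0.33) were positive, against 54% of all genes. So were 4 of 4 fat cell genes (0.47), of which Fabp4 rounded to 0 (SE 0.14). The mean level of 5 fat cell genes was 8.41 in SKM-KO 2, against 6.81 in SKM-KO 1 and 6.63 in SKM-KO 3. In C it ran from 6.78 to 7.26. Wt minus C shares the C arrays with SKM-KO minus C, so a high C array lowers both. In Wt minus C the liver genes were negative in 6 of 6 (-0.54). Positive were 3 of 3 erythroid genes (0.42), 5 of 5 satellite cell genes (0.41) and 3 of 4 fat cell genes (0.86). Over all genes 58.8% were positive, with a median of 0.06. Without Wt 2 these medians were -0.55, 0.28, 0.10 and 0.31, in the same order. With all arrays, single markers in Wt minus C had an unadjusted p under 0.05, as did 27.8% of all genes. Examples were Alas2 at 0.93 (p 0.0081), Cd163 at -1.07 (p 0.00111) and Cd68 at 0.87 (p 0.0026), with limma adjusted p-values of 0.145, 0.144 and 0.144. The part of the markers in the values of the immediate early factors was not tested.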

How the data were processed

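The authors deposited 1 log2 signal per probe set and array, made with RMA per the submitters' processing notes, for 45141 probe sets and 13 arrays. The RMA version is not given in the sources used here. The range was 2.14 to 13.21 and the medians of the arrays 4.85 to 4.94. The sources name no batch or scan date, and the number of arrays limits the precision. Nothing is said of litters, so p-values measure only the spread between these mice.

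Probe sets were named from the platform annotation. Of 45037 non-control probe sets 28898 had 1 gene symbol, 551 had several and 15588 had none here, and only the first kind was used for genes. A gene took its probe set with the highest mean, with a limit for testing of 4.9, the median mean of the non-control probe sets. Of 17097 genes 10411 were tested. Fosb fell below this and was tested among all 45037 probe sets only.

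Limma 3.58.1 under R 4.3.3 fitted 1 mean per group over all 13 arrays, moderated by eBayes, with 9 degrees of freedom left over and a prior worth 3.62 more. Tests were two-sided with Benjamini-Hochberg adjustment over all genes or probe sets tested and a threshold of 0.05. SE is the standard error of the fit. The fit was tested on simulated data. Beside the 10 genes stood 17 lists with 216 symbols, 196 measured and 164 tested. Named list genes were the 4 with the smallest p per list and comparison, or fewer, and the 8 genes nearest to the mean of the factors by correlation. The members and lists were chosen with earlier results of these data known. Trp53inp2 is named as the targeted gene, and Nr4a2, Adgre1, Cd14, Ptprc, Pax7, Myf5 and Vcam1 were named after their values were seen. Promoters are RefSeq's on GRCm38.p6 and were searched on both strands in the 250 bases before the start. Egr1 promoter sequence is not reported here. Alternatives were other normalizations, filters, probe set rules, moderation, array weights, separate fits and leaving out each array.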

Additional observations from a re-analysis of the deposited data

Results flagged for a closer look

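In SKM-Tg, the group of 4 arrays, the extreme array's distance from its nearest neighbour was set against the group's whole range for each of the 15 probe sets, and Dixon's 95% critical value was exceeded in 2. Chance passes it in about 1 of 20 groups. In the brighter Jun probe set SKM-Tg 2 had 9.40 and the others 8.97, 8.97 and 8.92, a ratio of 0.895. In the dimmer Fosl2 probe set SKM-Tg 2 had 6.55 and the others 6.06, 6.00 and 6.00, a ratio of 0.89. The other probe set of each gene stayed below the critical value, with ratios of 0.532 for Jun and 0.465 for Fosl2, although SKM-Tg 2 was the highest there too. SKM-Tg 2 was also the highest SKM-Tg array in the mean level of 5 fat cell genes, at 9.43, against 8.09, 8.20 and 8.21, and in Adipoq, at 9.84, against 7.66, 8.12 and 8.52. The part of this in the ratios was not tested. Without SKM-Tg 2 the SKM-Tg minus Wt median over the 9 genes tested was -0.64.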

How the results depend on the processing

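Of 807 values of single genes under alternatives, 775 kept their sign and their side of the threshold, and 9 of 36 single-gene results changed sign when an array was left out. With gene-by-gene array weights, chosen after seeing the data, Fos (0.06) and Nr4a1 (0.17) turned positive in SKM-KO minus C and Egr1 turned negative (-0.47) in the difference of the effects. With the mean of its probe sets Jund was 0 in SKM-KO minus C. The weights also gave calls where there were 0: 1 gene and 5 probe sets in SKM-Tg minus Wt, 1 gene in the difference of the effects, and 6 genes and 9 probe sets in Wt minus C. Of all 10411 genes tested, the weighted fits called 1487, 227 and 5787 in these comparisons, so calls were common far beyond these factors. The counts over all probe sets are not given here. With single arrays left out, the number called in Wt minus C ran from 0 to 3 genes and from 0 to 7 probe sets, the highest being without Wt 3. That fit called 4124 of 10429 genes. In SKM-KO minus C, single arrays left out gave ranges of -0.29 to 0.32 for Fos, -0.22 to 0.17 for Junb, -0.16 to 0.56 for Egr1, -0.47 to 0.22 for Nr4a1 and -0.66 to 0.97 for Atf3. In the difference of the effects they gave -0.13 to 0.67 for Egr1 and -1.33 to 0.30 for Atf3, and in Wt minus C -0.15 to 0.44 for Egr1 and -1.05 to 0.58 for Atf3. The causes were not tested. Signs that no alternative turned include all 9 in SKM-Tg minus Wt. Without Wt 2 the median of the fat cell genes was 1.63 in SKM-Tg minus Wt (1.06 with it) and 0.31 in Wt minus C (0.86 with it), an alternative added after seeing the data. No paired analysis was possible because the labels give each mouse a number of its own and no replicate numbers, and name no litters or pairs. With 3 or 4 arrays a group, many of the intervals are wide, and differences of any size within them remain compatible with the data.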
